A study of Macaca mulatta with 24 samples.

Results

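The genes examined were 5 orphan or formerly orphan receptors of striatal neurons, GPR6, GPR52, GPR149, GPR155 and GPR158. They were chosen by symbol from the 17208 gene rows of a transcript table of the nucleus accumbens core (NAcc core), and each symbol was found once. All 5 had a mean of at least 1 TPM (a length-scaled share of an animal's total transcripts, on a common scale), as did 13637 of the 17208 rows. The table covered 24 adult male rhesus macaques, unrelated to each other, with 1 RNA-Seq library per animal. The question behind the design was how a year of voluntary ethanol drinking relates to gene expression in this region.

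All 24 animals went through the same induction of drinking by scheduled food delivery and the same daily sessions. The 8 Control animals had water at both spouts and a maltose dextrin solution to match calories. The 8 LD* animals were low and binge drinkers, with an ethanol intake between 0.47 and 2.07 g/kg per day. The 8 HD* animals took between 2.74 and 3.78 g/kg per day and comprised 4 heavy (HD) and 4 very heavy (VHD) drinkers. HD intakes ran from 2.74 to 3.09 g/kg and VHD intakes from 3.09 to 3.78 g/kg, so the categories met at 3.09 g/kg. Of the 4 cohorts, 5 and 7a contributed 4 HD* animals each, with 3 Control animals in cohort 5 and 2 Control and 3 LD* animals in 7a. Cohort 7b contributed 3 Control and 3 LD* animals, and cohort 4 only 2 LD* animals. HD and VHD animals were split evenly, 2 of each in cohort 5 and in cohort 7a. Most animals were of similar age, with older animals in the LD* group, and tissue was taken without imposed abstinence.

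Most neurons of the NAcc core are GABAergic spiny projection neurons, which carry either D1 or D2 dopamine receptors. GPR6 and GPR52 are receptors that raise cyclic AMP through stimulatory G proteins, GPR6 with high activity in the absence of a ligand, and both are known for expression in D2 neurons, where D2 receptor signalling lowers cyclic AMP. GPR149 is a class A receptor without an established ligand. GPR155, also called LYCHOS, is a protein of the lysosomal membrane that senses cholesterol and acts on the mTORC1 pathway through the GATOR1 complex. GPR158 is a class C receptor that lacks the usual ligand-binding module of its class, binds the RGS7 and Gβ5 regulators of G protein signalling and has been described as a receptor for glycine.

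The dissections carried striatal RNA, but in unequal amounts. PPP1R1B (DARPP-32, the phosphoprotein of striatal projection neurons) had a median of 2772 TPM and ran from 304 to 3926 TPM. A pan-striatal score, the mean centred log2(TPM + 1) of 9 projection neuron markers, was −2.99 in Control replicate 6 and between −1.02 and 1.04 in the other 23 animals. Control replicate 6 also had the highest oligodendrocyte score, at 1.67. SLC17A7, the vesicular glutamate transporter of cortical excitatory neurons, had a median of 3.87 TPM but reached between 119 and 722 TPM in 6 animals (2 Control, 3 LD*, 1 HD*). The receptors' differences from the Control group are therefore given with and without Control replicate 6. In bulk tissue, fewer cells of a type and less RNA per cell cannot be told apart, which holds for every value that follows.

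GPR6 was the most abundant of the 5 receptors, with a mean of 133 ± 69.9 TPM (SD, n = 24), which placed it at rank 1462 of the 17208 rows. GPR158 followed with 68.3 ± 36.3 TPM, then GPR52 with 34.8 ± 20.5 TPM, GPR155 with 26.1 ± 7.91 TPM and GPR149 with 22.8 ± 11.3 TPM. The upper part of this order was nearly the same in every animal. The TPM of GPR6 exceeded that of GPR158 in 23 of 24 animals, the exception being Control replicate 6, and GPR158 exceeded GPR52 in all 24. The lower neighbours overlapped: GPR52 exceeded GPR155 in 18 animals and GPR155 exceeded GPR149 in 16. The median ratio of GPR6 to GPR158 was 1.99 and that of GPR158 to GPR52 was 2.02.

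Levels varied widely between animals. The highest TPM was 118 times the lowest for GPR52, 30.0 times for GPR6, 15.97 times for GPR149 and 8.68 times for GPR158, and the lowest value of each was that of Control replicate 6. Against the second-lowest animal these ratios were 11.0, 5.86, 6.28 and 7.08. The TPM of GPR155 ranged only 3.84-fold, and its lowest value belonged to HD* replicate 8. On the log2(TPM + 1) scale the SD over animals was 1.22 for GPR52, 1.12 for GPR6, 0.84 for GPR158, 0.82 for GPR149 and 0.49 for GPR155, against a median of 0.32 over the 13637 genes. GPR52 and GPR6 thus varied more than 99.6% and 99.4% of genes, GPR158 and GPR149 more than 97.6% and 97.4%, and GPR155 more than 83.5%.

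**Figure D1:**
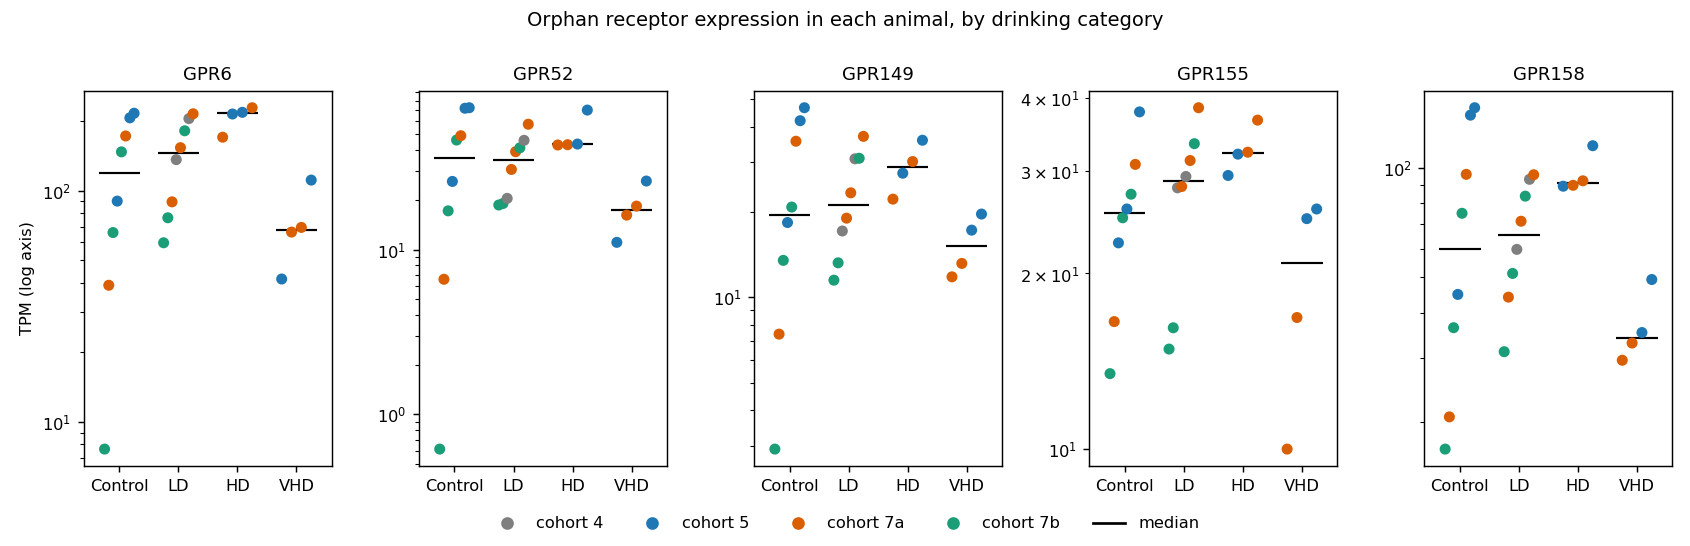
TPM of each receptor (log axis) in each of the 24 animals, by drinking category (Control and LD, n = 8 each; HD and VHD, n = 4 each), with dots coloured by cohort and black lines at the medians. In every panel all 4 VHD animals lie below all 4 HD animals, while Control and LD animals include values in the range of each.

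The clearest difference lay within the heavy drinkers. All 5 receptors were lower in each VHD animal than in any HD animal, and 4 of the 5, namely GPR6, GPR52, GPR149 and GPR158, fell in VHD animals by limma's test at an adjusted p under 0.05. Of the 13637 genes tested, 11.4% were called lower and 14.6% were called in either direction, and 17.9% had all VHD values below all HD values. The number of genes called, 1997, ran from 476 to 4651 when 1 animal was left out, without HD* replicate 6 and HD* replicate 4, and was 7613 with array weights. The median log2 difference was −1.38 over the 5 receptors and −0.17 over all genes tested. After TMM rescaling the median of all genes was 0.0049 and 54.5% of the called genes were lower, against 77.9% as deposited. The receptors then lay between −0.61 for GPR155 and −1.39 for GPR6. Values of single animals follow in the order HD* replicates 2, 3, 5 and 7 for HD and 1, 4, 6 and 8 for VHD.

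GPR6 measured 219, 215, 229 and 171 TPM in the HD animals and 111, 41.5, 69.5 and 66.3 TPM in the VHD animals. The lowest HD value stood well above the highest VHD value. The VHD level was 0.332 times the HD level on the log2(TPM + 1) scale, a log2 difference of −1.59 (SE 0.24, limma, adjusted p = 0.00435). GPR52, the other stimulatory receptor, measured 70.2, 43.6, 43.2 and 43.1 TPM in HD and 26.03, 11.1, 18.3 and 16.2 TPM in VHD animals. The last 3 HD values were nearly equal and that of HD* replicate 2 lay above them. Its log2 difference was −1.46 (SE 0.25, limma, adjusted p = 0.00640).

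GPR158, the RGS7 partner, measured 115, 89.0, 89.6 and 92.1 TPM in HD and 49.3, 35.3, 29.6 and 33.0 TPM in VHD animals. The VHD level was 0.383 times the HD level, with a log2 difference of −1.38 (SE 0.17, limma, adjusted p = 0.00363), the smallest SE of the 5. GPR149 measured 35.8, 27.4, 30.1 and 22.2 TPM in HD and 19.7, 17.3, 11.8 and 13.2 TPM in VHD animals. Its categories lay closer together, with a log2 difference of −0.87 (SE 0.21, limma, adjusted p = 0.0201). That call was lost when HD* replicate 2, 3, 5 or 6 was left out (adjusted p 0.0636, 0.0590, 0.0689 and 0.0798, log2 difference −0.75 to −0.88).

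GPR155, the lysosomal protein, measured 32.0, 29.4, 36.6 and 32.2 TPM in HD and 25.8, 24.8, 16.8 and 10.0 TPM in VHD animals. The groups did not overlap, but the log2 difference of −0.80 (SE 0.26) missed the threshold (limma, adjusted p = 0.0549, 95% confidence interval −1.36 to −0.24). It passed with cohort as a covariate (adjusted p = 0.0346), after rescaling by TMM (0.0393) or the median of ratios (0.0379), among genes of at least 10 TPM (0.0419), with array weights (0.000301) and without HD* replicate 1 (0.0343) or 4 (0.0149). It did not pass with either other pseudocount, with no filter, or without HD* replicate 7. Nor did it pass with the pan-striatal or the oligodendrocyte score as a covariate. Without HD* replicate 8, the animal with its lowest value, the difference was −0.54. An exact permutation test over the 70 assignments of 8 animals gave p = 0.0286 for each receptor, the smallest value it can give. Any gene without overlap between the categories gives this unadjusted p, so it only restates the lack of overlap.

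The differences recurred in both cohorts, where 2 VHD animals faced 2 HD animals and no test was made. In cohorts 5 and 7a respectively, the log2 differences were −1.66 and −1.53 for GPR6, −1.64 and −1.28 for GPR52, −1.26 and −1.51 for GPR158, and −0.73 and −0.995 for GPR149. GPR155 was uneven, with −0.27 in cohort 5 and −1.34 in cohort 7a.

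Projection neuron markers moved with the receptors. The pan-striatal score lay between 0.63 and 0.89 in HD and between −0.88 and −0.096 in VHD animals, with summed marker levels of 7288 to 8861 TPM and 2580 to 5053 TPM. All 9 pan-striatal markers fell (median log2 difference −1.11), as did 4 of 4 D2 markers, 3 of 5 D1 markers and 3 of 5 markers of all neurons. The D1 markers TAC1 and EBF1 gave −0.061 and −0.20 and were not called. No marker of striatal interneurons, cortical-type excitatory neurons or endothelium was called, with list medians of −0.16, −1.03 and −0.32. DRD2, the D2 receptor itself, was at 356 ± 16.3 TPM in HD and 169 ± 72.4 TPM in VHD animals (SD, n = 4 each). Among glial lists, 1 of 6 astrocyte markers (GFAP, the intermediate filament of astrocytes, 1.39), 3 of 6 microglial markers (AIF1, C1QA and C1QB, 0.64 to 1.11) and 1 of 7 oligodendrocyte markers (MBP, a myelin protein, 0.84) rose on the log2 scale. The other oligodendrocyte markers were not called, 4 of the 7 were below 0 (MAG −0.76), and the median of the list was −0.13. Summed astrocyte markers ran from 1769 to 3253 TPM in HD and from 3917 to 6570 TPM in VHD animals, and summed microglial markers from 273 to 359 TPM and from 360 to 630 TPM, with no marker at 0. The scores of these lists overlapped, at −0.76 to −0.013 in HD and −0.29 to 0.70 in VHD animals for astrocytes, and −0.47 to −0.051 and −0.14 to 0.67 for microglia. The part of cell composition in the receptor differences was not tested.

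With the pan-striatal score as a covariate, no gene of the 13637 was called (limma, 2298 at an unadjusted p under 0.05, or 16.9%). The log2 difference between VHD and HD was then −0.025 (SE 0.45) for GPR6, −0.027 (SE 0.52) for GPR52, −0.41 (SE 0.56) for GPR149, −0.71 (SE 0.43) for GPR158 and −1.20 (SE 0.71) for GPR155. The score itself separated the categories without overlap, and the SE of every receptor was larger than in the model without it. Each receptor was also expressed relative to the mean log2(TPM + 1) of the same markers. The VHD minus HD difference in this relative level was −0.39 for GPR6 (exact permutation test, two-sided, p = 0.114), −0.26 for GPR52 (exact p = 0.286) and −0.19 for GPR158 (exact p = 0.343). It was positive for GPR149, at 0.33 (exact p = 0.171), and for GPR155, at 0.40 (exact p = 0.429). The relative level takes the markers off 1 for 1. Over 24 animals the SD was 0.82 for GPR149 and 0.49 for GPR155, against 0.90 for the score. A receptor that varies less than the score can be positive here although its own level fell, as it did for both. None of these exact tests reached 0.05.

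**Figure D2:**
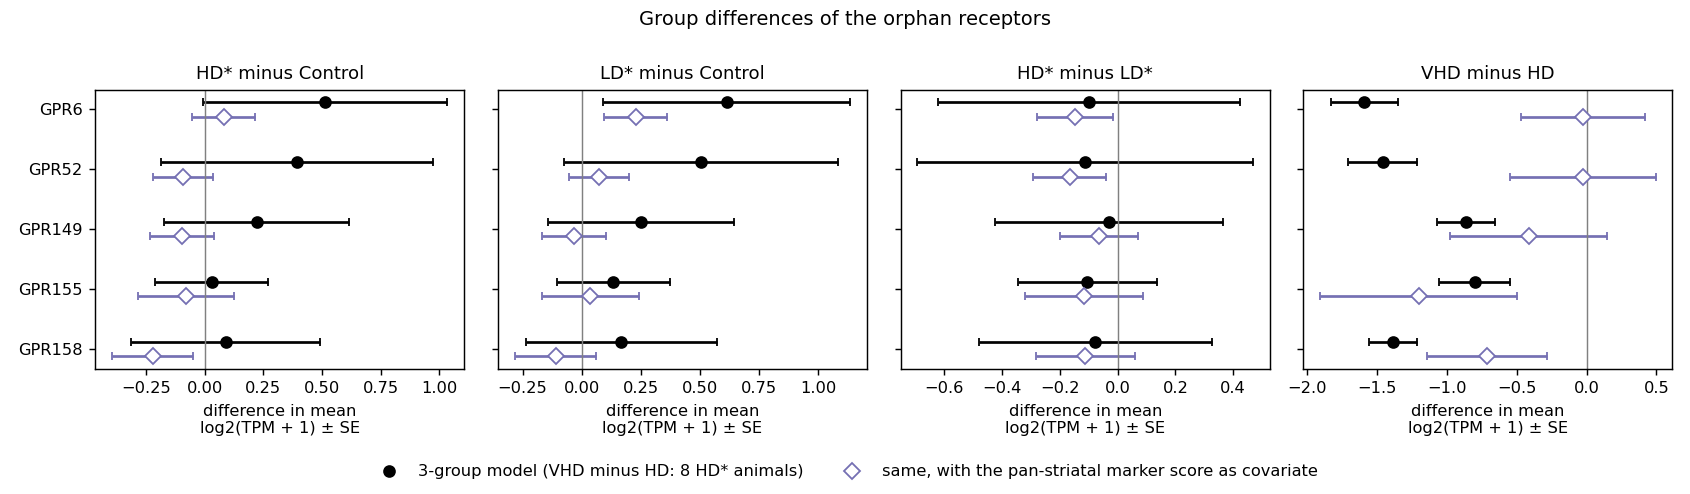
Differences in mean log2(TPM + 1) with SE for each receptor in 4 comparisons, without (black) and with (open diamonds) the pan-striatal marker score as a covariate. VHD minus HD lies between −0.80 and −1.59 without the score and between −0.025 and −1.20, with wider errors, with it, while HD* minus Control stays between 0.029 and 0.51 without the score.

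The 3 study groups overlapped fully for every receptor. In HD* against Control animals, 0 of 13637 genes (0%) passed an adjusted p of 0.05 in limma, and 775 (5.68%) passed an unadjusted p of 0.05, none of them among the 5 receptors. GPR6 ran from 7.63 through a median of 119 to 217 TPM in Control, from 59.6 through 145 to 215 TPM in LD*, and from 41.5 through 141 to 229 TPM in HD* animals. The medians of LD* and HD* were nearly equal, and the Control range enclosed most of both. The HD* minus Control log2 difference was 0.51 (SE 0.52, limma, adjusted p = 0.731), and 0.044 without Control replicate 6.

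GPR52 ran from 0.616 through 36.0 to 72.5 TPM in Control, from 18.6 through 34.9 to 57.6 TPM in LD*, and from 11.1 through 34.6 to 70.2 TPM in HD* animals. Its medians differed by little, and the log2 difference of HD* from Control was 0.39 (SE 0.58, limma, adjusted p = 0.797), turning to −0.15 without Control replicate 6. GPR149 had medians of 19.6, 21.2 and 20.9 TPM in Control, LD* and HD* animals, and ranges of 2.92 to 46.6, 11.5 to 36.9 and 11.8 to 35.8 TPM. Its difference was 0.22 (SE 0.39, limma, adjusted p = 0.835), and −0.10 without that animal.

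GPR158 had medians of 60.0, 65.5 and 69.2 TPM in Control, LD* and HD* animals, and ranges of 16.9 to 146, 31.2 to 95.7 and 29.6 to 115 TPM. Its HD* minus Control difference was 0.090 (SE 0.40, limma, adjusted p = 0.933), and −0.15 without Control replicate 6. The authors' own test of these groups, DESeq2 on read counts, did call genes, and they list GPR158 as downregulated in HD* animals. Why the results differ was not tested. GPR155 had medians of 25.3, 28.7 and 27.6 TPM, and ranges of 13.5 to 37.8, 14.8 to 38.4 and 10.0 to 36.6 TPM. Its difference was 0.029 (SE 0.24, limma, adjusted p = 0.964, 95% confidence interval −0.46 to 0.52), and −0.082 without that animal. Thus 4 of the 5 signs turned without Control replicate 6. That of GPR155 turned when any 1 of 6 animals was left out, and that of GPR158 with any 1 of 4. The median of all genes in this comparison was −0.12, which became 4e-05 after TMM rescaling.

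No receptor was called between LD* and Control animals. The log2 differences were 0.61 for GPR6 (SE 0.52), 0.50 for GPR52 (SE 0.58), 0.25 for GPR149 (SE 0.39), 0.17 for GPR158 (SE 0.40) and 0.13 for GPR155 (SE 0.24), with a limma adjusted p of 1.00 for each. In this comparison 0 genes (0%) passed and 387 (2.84%) had an unadjusted p under 0.05, none of them a receptor. Without Control replicate 6 the differences of GPR6 and GPR155 were 0.14 and 0.023, and those of GPR52, GPR149 and GPR158 were −0.042, −0.072 and −0.069. HD* against LD* gave differences from −0.029 for GPR149 to −0.11 for GPR52 (limma, adjusted p 0.948 to 0.991). There, too, 0 genes (0%) passed, 147 (1.08%) had an unadjusted p under 0.05 and none was a receptor. HD* and LD* shared the same Control animals in the first 2 comparisons.

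Within cohorts 5 and 7a the HD* minus Control differences pointed different ways for every receptor except GPR155. In cohort 5 (4 against 3 animals) they were −0.39 for GPR6, −0.72 for GPR52, −0.44 for GPR149, −0.57 for GPR158 and −0.0085 for GPR155 (exact permutation over 35 assignments, two-sided p 0.314 to 1). In cohort 7a (4 against 2 animals) they were 0.49, 0.54, 0.12, 0.25 and −0.085 in the same order (exact permutation, p 0.533 to 1, where 15 assignments cannot give a p under 0.05). The difference between the cohorts was tested as an interaction. It was largest for GPR52, at 1.26 (SE 1.04), and its limma adjusted p was 1.00 for each receptor. Of all genes, 0 (0%) passed that test and 294 (2.16%) had an unadjusted p under 0.05.

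Cohort itself, at a given group, was not called for any receptor. The unadjusted p of limma's F-test was 0.0447 for GPR149 and between 0.153 and 0.244 for the other 4 (adjusted p 0.540 to 0.592), where 0 of all genes (0%) passed and 1140 (8.36%) had an unadjusted p under 0.05. Mean GPR6 was 157 ± 74.3 TPM in cohort 5 (SD, n = 7), 134 ± 69.5 TPM in cohort 7a (n = 9) and 89.8 ± 63.6 TPM in cohort 7b (n = 6), the cohort of Control replicate 6. The differences between these means were about as large as the SDs or smaller. Cohort 4, which held only LD* animals, was higher, at 171 ± 48.7 TPM (n = 2). All of these means pool the study groups, which were unevenly spread over the cohorts.

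Intake was compared with expression in the 16 drinkers. Every slope of log2(TPM + 1) per g/kg of daily ethanol was below 0, at −0.23 for GPR6 (SE 0.20), −0.18 for GPR158 (SE 0.17), −0.14 for GPR52 (SE 0.19), −0.11 for GPR155 (SE 0.13) and −0.092 for GPR149 (SE 0.14). None passed (limma, adjusted p 0.575 to 0.744). Of all genes 72.5% had a slope below 0, 0 (0%) passed the adjusted threshold and 907 (6.65%) had an unadjusted p under 0.05, none of them a receptor. With cohort as a covariate the slopes steepened to between −0.52 for GPR155 and −0.65 for GPR52, still without a call (limma, adjusted p 0.152 to 0.273).

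Slopes were also taken within each group, and the difference between them was not tested. Within the 8 HD* animals it ran from −0.72 for GPR155 to −1.57 for GPR52 per g/kg (limma, adjusted p 0.844 for each), and within the 8 LD* animals from −0.54 for GPR6 to 0.099 for GPR52 (limma, adjusted p 0.703 to 0.934). HD* replicate 1 had the highest intake of all, 3.78 g/kg, and the highest GPR6, GPR52, GPR149, GPR155 and GPR158 of the 4 VHD animals. At the shared intake of 3.09 g/kg, HD* replicate 3 (HD) had 215 TPM of GPR6 and HD* replicate 6 (VHD) had 69.5 TPM.

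**Figure D3:**
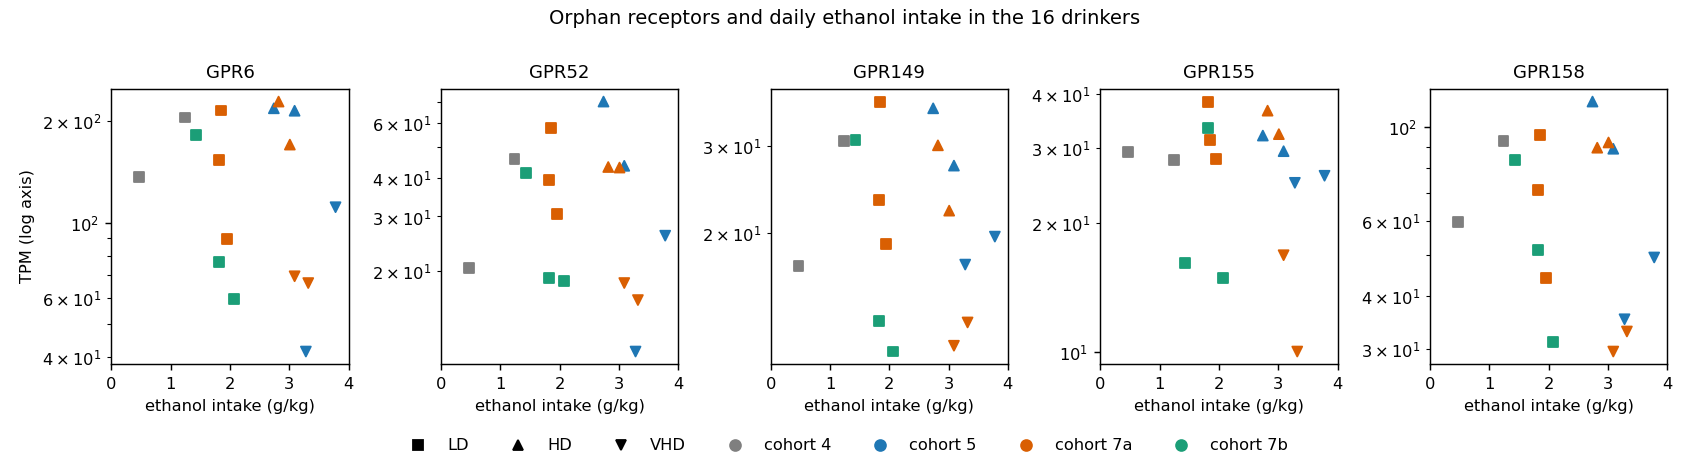
TPM of each receptor (log axis) against daily ethanol intake (g/kg) in the 16 drinkers, with marker shape for category and colour for cohort. HD and VHD animals separate in TPM although their intakes meet at 3.09 g/kg, and LD animals, at 2.07 g/kg or less, have GPR6 from 59.6 to 215 TPM.

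Over the 24 animals 4 of the receptors varied together. Pearson's r of log2(TPM + 1) was 0.97 between GPR6 and GPR52 (Spearman's rho 0.92), 0.95 between GPR52 and GPR149 (rho 0.94), 0.94 between GPR149 and GPR158 (rho 0.95) and also between GPR6 and GPR149 (rho 0.92), and 0.92 and 0.91 for GPR158 with GPR6 and with GPR52 (rho 0.93 and 0.95). All 6 pairs reached a permutation p of 1e-05, the smallest 100000 permutations can give (Benjamini-Hochberg adjusted over 10 pairs, 1.7e-05). Without the 2 animals farthest from the median, both Controls, r was between 0.87 and 0.94. Within cohorts 5, 7a and 7b these 6 values of r ran from 0.84 to 0.98, from 0.96 to 0.98 and from 0.91 to 0.99.

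GPR155 followed the others less closely. Its r was 0.66 with GPR158, 0.62 with GPR6 and 0.60 with both GPR52 and GPR149 (rho 0.64, 0.63, 0.56 and 0.54; permutation p between 0.00038 and 0.0023, adjusted 0.00054 to 0.0023). These values lay between 0.46 and 0.57 without the 2 farthest animals. Within cohorts they were 0.38 to 0.49 in cohort 5, 0.76 to 0.81 in cohort 7a and 0.36 to 0.44 in cohort 7b. The difference between these and the other pairs was not tested.

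The same split appeared against cell type markers, in 50 relations of 5 receptors with 10 lists. GPR6 had its highest r with the D2 list, 0.99 (rho 0.95), where DRD2, ADORA2A, PENK and SP9 are the members, and 0.97 with the pan-striatal list (rho 0.93). The pan-striatal list gave r of 0.98 with GPR52 (rho 0.93), 0.95 with GPR149 (rho 0.92) and 0.91 with GPR158 (rho 0.91), each with a permutation p of 1e-05 (adjusted 3.6e-05). The D1 list gave nearly the same values, 0.96 for GPR6 and GPR52 and 0.94 for GPR149, and a lower one, 0.86, for GPR158. With the D2 list r was 0.97 for GPR52, 0.94 for GPR149 and 0.90 for GPR158. The rho of GPR52 was 0.88 with the D2 list and 0.91 with the D1 list. Without the 2 farthest animals the pan-striatal r stayed between 0.91 and 0.96 for these 4 receptors. It was between 0.91 and 0.99 within each of cohorts 5, 7a and 7b.

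GPR155 had an r of 0.54 with the pan-striatal list (rho 0.52, permutation p = 0.0063, adjusted 0.011), which was 0.37 without the 2 farthest animals. Its highest r was with the list of all neurons (SNAP25, SYT1, RBFOX3, NEFL and ENO2), 0.82 (permutation p = 1e-05, adjusted 3.6e-05), and 0.75 without the 2 farthest. GPR158 shared that relation, with 0.83 for all neurons. Astrocyte and microglial scores ran against GPR6, GPR52, GPR149 and GPR158, with r from −0.60 to −0.74. For GPR155 these were −0.22 and −0.32 and did not pass (adjusted permutation p 0.34 and 0.16).

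**Figure D4:**
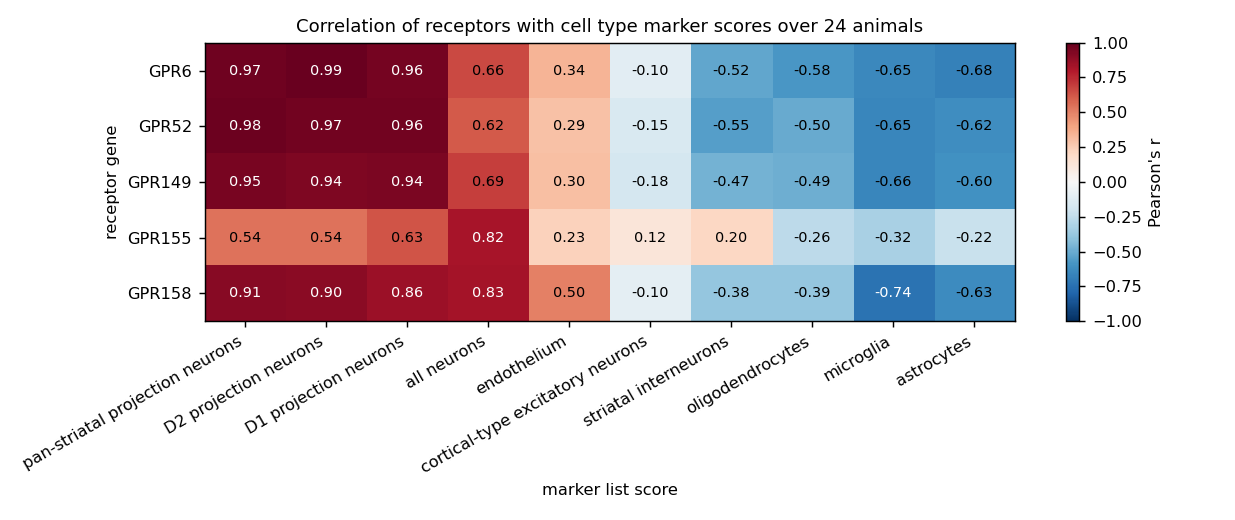
Pearson's r over 24 animals between log2(TPM + 1) of each receptor and the score of each marker list, from −1 (blue) to 1 (red). GPR6, GPR52, GPR149 and GPR158 have r of 0.86 to 0.99 with the 3 projection neuron lists, whereas GPR155 has 0.54 to 0.63 with them and 0.82 with the list of all neurons.

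Relative to the striatal markers, 4 receptors had a much smaller spread. The SD over 24 animals of the level relative to the pan-striatal markers was 0.33 for GPR6 against 1.12 for the plain log2 level, 0.38 against 1.22 for GPR52, 0.29 against 0.82 for GPR149 and 0.38 against 0.84 for GPR158. For GPR155 it was 0.76 against 0.49. Without Control replicate 6 the relative SD was 0.30 for GPR6, 0.31 for GPR52, 0.26 for GPR149, 0.28 for GPR158 and 0.62 for GPR155. No difference in relative level between the 3 study groups passed 0.05, with exact permutation p from 0.0943 (GPR6, LD* against Control, 0.29) to 0.906 (GPR52, HD* against Control, 0.028). The TPM ratio of GPR6 to DRD2 had a median of 0.582 in Control, 0.594 in LD* and 0.516 in HD* animals, with a range over all animals of 0.173 to 0.819, the lowest in Control replicate 6.

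**Figure D5:**
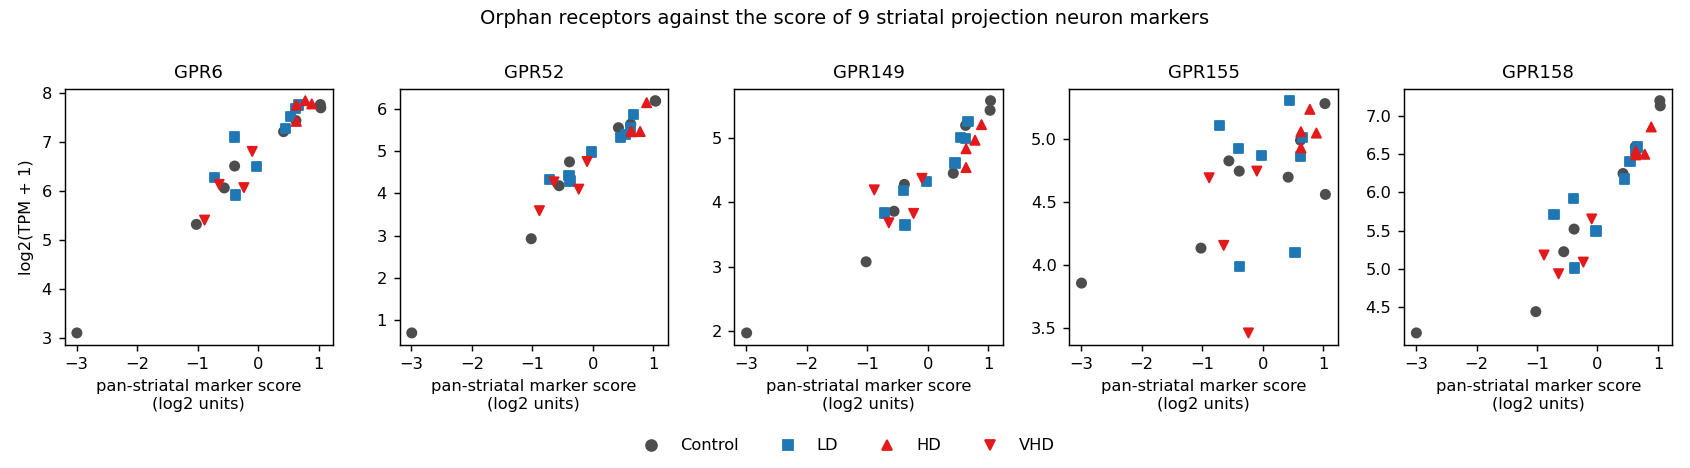
Log2(TPM + 1) of each receptor against the pan-striatal marker score (log2 units) in 24 animals, by category. GPR6, GPR52, GPR149 and GPR158 lie along a line with r of 0.91 to 0.98, HD animals at its upper end and VHD animals lower, whereas GPR155 is scattered with r of 0.54, and Control replicate 6 stands alone at −2.99.

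The genes closest to each receptor over the 24 animals were named by rank of r, as a description. For GPR6 they were ACTN2 (r 0.99), ACTR3B, BCL11B, PHYHIP and CA12 (all 0.98). BCL11B is a transcription factor of striatal projection neurons and is itself in the pan-striatal list. For GPR52 they were ANO3, CA12, PPP3CA, RHOBTB2 and EPHX4 (0.98 each), and for GPR149 SLC35D3, PPP3CA, SERTAD4, PDE7B and KCNA4 (0.97 to 0.98). CA12 appeared for GPR6 and GPR52, and PPP3CA, the catalytic subunit of calcineurin, for GPR52 and GPR149. For GPR158 they were PLCL2 (0.99), FOXP1, ATP2B1, FAM49B and ACVR1C (0.97 to 0.98). FOXP1 is a forkhead factor of striatal neurons and ATP2B1 a plasma membrane calcium pump.

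GPR155 had other neighbours. GRIN2A, a subunit of the NMDA glutamate receptor, came first with r of 0.92, followed by DGKE, USPL1, LRRC8B and XKR4 (0.90 each). In the same order, Spearman's rho was 0.90, 0.82, 0.66, 0.83 and 0.79, lowest for USPL1. Only 5 of 13636 genes (0.0367%) had an r above 0.9 with GPR155, against 1.54% to 2.45% for the other 4 receptors. Among all genes ranked by r with GPR6, GPR52 stood at rank 18, GPR149 at 106, GPR158 at 178 and GPR155 at 2020. Without Control replicate 6 the r of the named neighbours was between 0.95 and 0.98 for the first 4 receptors and between 0.89 and 0.91 for GPR155.

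A list of 20 relatives, partners and effectors was set beside the receptors, of which 18 were in the table and tested. In VHD against HD animals 11 of the 18 fell and 0 rose by limma's adjusted p, where 11.4% of all genes were called lower (1 was higher at an unadjusted p under 0.05, NPRL2), with a median log2 difference of −0.70. RGS9, ADCY5, PDE10A and PDE1B, which were among those that fell, also belong to the pan-striatal list. GPR12, the relative of GPR6, fell by 1.27 on the log2 scale (SE 0.22, limma, adjusted p = 0.00640), and GPR3, the other relative, gave −0.66 (limma, adjusted p = 0.155). The partners of GPR158 fell as well, RGS7 by 0.66 (limma, adjusted p = 0.0247), GNB5, which encodes Gβ5, by 0.71 (adjusted p = 0.00745), and the membrane anchor RGS7BP by 1.28 (adjusted p = 0.0123).

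GPR158 was lower relative to RGS7 in VHD animals, with a TPM ratio of 0.450 to 0.817 against 0.958 to 1.13 in HD animals, given as a description. Among the genes that make or break down cyclic AMP, the phosphodiesterase PDE10A fell by 1.61 (limma, adjusted p = 0.00363) and the adenylyl cyclase ADCY5 by 0.90 (adjusted p = 0.00640). GNAS, a stimulatory G protein subunit, gave 0.27 and GNG7 0.18 (limma, adjusted p 0.501 and 0.668). Of the mTORC1 genes beside GPR155, MTOR fell by 0.72 (limma, adjusted p = 0.0348) and the GATOR1 subunit DEPDC5 by 0.69 (adjusted p = 0.0257). The other GATOR1 subunits gave −0.32 for NPRL3 and 0.40 for NPRL2 (limma, adjusted p 0.200 and 0.0734). In the 3 study group comparisons 0 of the 18 passed the adjusted threshold, and 1 had an unadjusted p under 0.05, lower in HD* than in LD* animals.

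Of 27 other orphan receptors of the brain, 23 were tested and 4 fell in VHD animals, where 11.4% of all genes were called lower, with 0 higher and 8 lower at an unadjusted p under 0.05 (limma, 24.6% of all genes lower), and a median log2 difference of −0.39. The largest difference of these was that of GPR139, −2.50 (SE 0.43, limma, adjusted p = 0.00640), from 17.3 ± 6.26 TPM in HD to 2.60 ± 2.31 TPM in VHD animals (SD, n = 4 each). GPR63 fell by 1.12, GPR135 by 0.93 and GPR61 by 0.76 (limma, adjusted p 0.00861 to 0.0334). The 3 most abundant were GPR37L1 at 137 ± 31.9 TPM, GPR137 at 104 ± 16.1 TPM and GPR162 at 99.2 ± 37.5 TPM (SD, n = 24). They gave differences of −0.38, −0.28 and −0.16, none of them called (limma, adjusted p 0.232 to 0.673). GPR6 was thus about as abundant as GPR37L1, and its highest to lowest range was 30.0-fold where GPR37L1 ran from 81.1 to 198 TPM.

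One position could bear on the GPR52 values. In the RefSeq annotation of another rhesus assembly, GPR52 lies within the span of RABGAP1L, a gene with a mean of 18.8 TPM in the table. The r between both over 24 animals was 0.63. How reads in the shared span were assigned in the MacaM annotation was not tested.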

How the data were processed

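RNA from the NAcc core of 24 animals had been made into polyA-selected libraries. The paper describes them as paired-end, and the deposited record disagrees with it on read pairing and strandedness. The authors aligned reads to the MacaM assembly with STAR 2.5.2b, keeping uniquely placed reads, counted them per gene with HTSeq 0.6.1p1 and used DESeq2 for their own tests. The deposited table holds TPM, which the authors derived in a way not given in the sources used here. The authors call them normalized counts, and the unit was read from the column totals. Columns add up to between 999998 and 1000000, so the depth is unknown, counting error cannot be stated, and count models could not be fitted.

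Analysis was on log2(TPM + 1). Genes averaging at least 1 TPM (13637) were fitted with limma 3.58.1 in R 4.3.3 (empirical Bayes with a trend), with Benjamini-Hochberg adjustment over all of them and a threshold of 0.05. Fold changes on this scale understate those of weakly expressed genes. One model of 3 groups gave the group comparisons, a separate fit to the 8 HD* animals contrasted VHD with HD, and others gave the slope on intake in 16 drinkers, the cohort terms beside group, and the interaction of group with cohort in cohorts 5 and 7a. The models were tested on simulated data. All tests are two-sided. Exact permutation tests enumerated all assignments of animals, and correlations used 100000 permutations (Python 3.11.15, numpy 2.4.6, scipy 1.17.1, pandas 2.3.3, with plots by matplotlib 3.10.9). A list score is the mean over a list's genes of log2(TPM + 1) centred on the 24 animals. A relative level subtracts the mean log2(TPM + 1) of the pan-striatal markers.

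Groups, categories, cohorts and intake came from the labels. Replicates are separate animals, numbered in accession order. The 5 receptors, the lists of partners, other orphan receptors and markers, and the rule that names the 5 genes with the highest r for each receptor were chosen with earlier results of these data known. GPR179, GNAL, GUCY1A1 and PECAM1 had no row under these symbols. Alternatives were pseudocounts of 0.1 and 8, no filter and a filter of 10 TPM, rescaling by TMM (trimming 30% of M and 5% of A) or by the median of ratios, cohort, pan-striatal or oligodendrocyte scores as covariates, array weights, other sets of animals, and omission of 1 animal at a time. No sequences or coordinates are printed, because the reference annotation is of another assembly (RefSeq, T2T-MMU8v2.0), which was used only to find genes that overlap a receptor.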

Additional observations from a re-analysis of the deposited data

Results flagged for a closer look

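Among 25 sets of 4 or 8 animals examined for a value apart from the rest (5 receptors in 3 groups and 2 categories nested in HD*), 2 held one by Dixon's criterion at the 95% level, where chance gives about 1 in 20. Both belong to HD* replicate 2, an HD animal of cohort 5. Its GPR52 was 70.2 TPM, against 43.1 to 43.6 TPM in the other 3 HD animals. Its GPR158 was 115 TPM, against 89.0 to 92.1 TPM. This animal also had the highest pan-striatal score of the HD animals, 0.89, and the cause of its high values was not tested.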

How the results depend on the processing

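The depth behind the TPM values is unknown, so the limit on small differences is the number of animals and their spread. No paired analysis was possible because replicate numbers were given in accession order and pair no animals.

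VHD against HD kept its direction for all 5 receptors under every alternative. The number of genes called, 1997, moved to 0 with the pan-striatal score as a covariate, to 7613 with array weights and to 723 without the animals with SLC17A7 at 100 TPM or more (here HD* replicate 7, chosen after seeing the data), and ranged from 476 without HD* replicate 6 to 4651 without HD* replicate 4, with 1094, 681, 607 and 723 without HD* replicates 2, 3, 5 and 7. GPR6, GPR52 and GPR158 kept their calls in each of these except the pan-striatal covariate, with log2 differences of −1.36 to −1.83, −1.26 to −1.65 and −1.29 to −1.53 when an animal was left out.

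In the 3 study groups and the slope on intake no receptor was called under any alternative, but signs were unstable. HD* against Control turned with cohort as a covariate (GPR52 −0.074, GPR149 −0.14, GPR155 −0.14, GPR158 −0.18), with the pan-striatal score (−0.092, −0.095, −0.079 and −0.22), with that score and without Control replicate 6 (added after seeing the data, −0.12, −0.073, −0.073 and −0.11), with the oligodendrocyte score (GPR155 −0.035, GPR158 −0.085), with array weights (GPR149 −0.024) and in cohorts 5 and 7a alone (GPR6 −0.044, GPR52 −0.23, GPR149 −0.26, GPR155 −0.077, GPR158 −0.27). LD* against Control turned with the pan-striatal score (GPR149 −0.032, GPR158 −0.11), the same without Control replicate 6 (GPR149 −0.0073), the oligodendrocyte score (GPR149 −0.059, GPR158 −0.089) and array weights (GPR52 −0.065, GPR149 −0.035, GPR158 −0.096). HD* against LD* turned after TMM rescaling (GPR149 0.055, GPR158 0.0095), the median of ratios (0.056 and 0.011), the oligodendrocyte score (GPR6 0.051, GPR52 0.033, GPR149 0.069, GPR158 0.0036) and array weights (GPR6 0.13, GPR52 0.10, GPR149 0.011, GPR155 0.11, GPR158 0.13). The slope turned with array weights for GPR155 (0.039), within LD* for GPR52 (0.099) and with Controls at 0 g/kg for GPR6, GPR52 and GPR149 (0.10, 0.094 and 0.044). The cause was not tested.

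With 1 animal left out, HD* minus Control ran from 0.044 to 0.73 for GPR6, −0.15 to 0.63 for GPR52, −0.10 to 0.41 for GPR149, −0.082 to 0.20 for GPR155 and −0.15 to 0.29 for GPR158. LD* minus Control ran from −0.042 to 0.75 for GPR52, −0.072 to 0.44 for GPR149 and −0.069 to 0.37 for GPR158. HD* minus LD* ran from −0.25 to 0.11 for GPR6, −0.29 to 0.076 for GPR52, −0.15 to 0.081 for GPR149, −0.22 to 0.067 for GPR155 and −0.22 to 0.061 for GPR158.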
